A study of Mus musculus with 9 samples.

Results

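The genes described here are the Mef2 transcription factors Mef2a, Mef2c and Mef2d, the Mef2 coactivator Mamstr, and the class IIa histone deacetylases Hdac4, Hdac5, Hdac7 and Hdac9, as measured in sorted cells of the mouse forelimb bud. They were taken by name as all probe sets whose annotation gave exactly 1 gene symbol, that symbol being 1 of these 8. This gave 24 of 45037 probe sets and 8 of 18193 genes. Mef2a had 6 probe sets, Mef2c 5, Mef2d and Hdac4 3 each, Mamstr, Hdac7 and Hdac9 2 each, and Hdac5 1. The main probe set of a gene was the one with the highest mean over the arrays, and the others served as a check.

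Mef2 proteins are MADS-box transcription factors that bind an AT-rich site in the control regions of muscle genes and act together with the myogenic regulatory factors. Class IIa histone deacetylases bind Mef2 proteins and hold their target genes silent, and kinases relieve this by phosphorylating the deacetylase, which then binds 14-3-3 proteins and leaves the nucleus. Mamstr, a SAP domain protein also called MASTR, is a coactivator of Mef2 factors in skeletal muscle. Muscle progenitors of the limb express Pax3 as they migrate in from the somites, before they differentiate.

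The series holds 9 Affymetrix arrays, 3 for each of 3 cell populations from forelimb buds of mouse embryos at E10.5. PAX3-FKHR GFP+ cells came from Pax3PAX3-FKHR/GFP embryos, which carry 1 Pax3 allele encoding a fusion of PAX3 with the transcriptional activation domain of FKHR and 1 Pax3 allele encoding GFP. Control GFP+ cells came from Pax3GFP/+ embryos, which keep 1 intact Pax3 allele. GFP- cells are labelled only as such. By the methods they were sorted from Pax3GFP/+ embryos. A Pax3+/+ group also appears among the arrays there, without a word on which cells it holds. By the methods the fusion allele was activated by a PGK-Cre transgene, which acts in all tissues, GFP marked the cells in which the Pax3 locus was or had lately been active, and buds of many embryos were pooled to gather enough cells. Nothing in the labels says that replicates came from separate litters, so p-values measure the spread between these samples. In RNA from a sorted population, fewer cells of a type and less RNA per cell cannot be told apart.

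The arrays had medians between 5.08 and 5.13 on the log2 scale. Pax3, whose intact allele is missing in PAX3-FKHR GFP+ cells, had values of 7.15, 6.83 and 7.33 in PAX3-FKHR GFP+ cells, 9.92, 8.94 and 10.22 in control GFP+ cells, and 5.17, 5.14 and 4.77 in GFP- cells. Of 9 limb mesenchyme markers, 9 were called lower in PAX3-FKHR GFP+ cells and 8 in control GFP+ cells, each against GFP- cells, where 2.79% and 1.93% of all genes were. Replicate 3 of the GFP- cells stood apart by genes of heart muscle: Myh6 had a value of 7.80 there, against 3.51 and 3.75 in the other GFP- arrays. The mean of 12 cardiac markers was 5.22 on that array and 4.36 to 4.57 on the other 8. Among the cardiac transcription factors, Gata5 was at 4.81 on that array, above the other 8 (4.34 to 4.53). Nkx2-5 was at 5.03, against 5.03 and 5.30 on the other GFP- arrays, Gata4 at 4.37, against 4.34 and 4.29, and Tbx20 at 3.29, against 3.37 and 3.05. Replicate 3 of control GFP+ cells had the lowest quality weight of the 9 arrays, 0.236, against 0.604 to 2.69 for the others.

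Promoters are shown for Hdac5 and Mamstr, which had a probe set called between PAX3-FKHR GFP+ and control GFP+ cells, and for Mef2a, whose window like that of Hdac5 held an exact Mef2 site. The windows run from 250 bases before to 50 bases after the annotated start, 5′ to 3′ on the gene's strand, and come from RefSeq on build GRCm38.p6. All 8 genes had at least 1 window. The motifs searched, on both strands, were the Mef2 site CTAAAAATAG (CTATTTTTAG on the other strand) and the E-boxes CAGCTG and CACGTG, and they were chosen after the windows had been seen. The Mef2 site was in 36 of 32851 windows (0.11%), CACGTG in 7.15% and CAGCTG in 16.3%. Capitals mark matches, none of which overlap. The Hdac5 window, chr11:102230123-102230422 on the minus strand, held a Mef2 site starting at position -20 from the start and CACGTG at position 3. The Mef2a window, chr7:67372809-67373108 on the minus strand, held a Mef2 site starting at position -2. The Mamstr window, chr7:45639727-45640026 on the plus strand, held CAGCTG at position 25.
Hdac5: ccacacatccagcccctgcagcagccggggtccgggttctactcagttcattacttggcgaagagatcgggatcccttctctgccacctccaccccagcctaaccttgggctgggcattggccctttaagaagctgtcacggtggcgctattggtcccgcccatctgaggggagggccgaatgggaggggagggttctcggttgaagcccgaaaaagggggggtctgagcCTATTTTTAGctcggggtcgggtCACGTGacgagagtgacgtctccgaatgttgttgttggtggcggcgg
Mef2a: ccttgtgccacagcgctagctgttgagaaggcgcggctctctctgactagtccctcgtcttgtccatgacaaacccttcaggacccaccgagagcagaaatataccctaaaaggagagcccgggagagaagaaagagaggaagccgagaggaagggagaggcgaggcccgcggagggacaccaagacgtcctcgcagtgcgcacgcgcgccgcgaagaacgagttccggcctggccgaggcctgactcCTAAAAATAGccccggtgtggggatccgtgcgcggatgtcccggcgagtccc
Mamstr: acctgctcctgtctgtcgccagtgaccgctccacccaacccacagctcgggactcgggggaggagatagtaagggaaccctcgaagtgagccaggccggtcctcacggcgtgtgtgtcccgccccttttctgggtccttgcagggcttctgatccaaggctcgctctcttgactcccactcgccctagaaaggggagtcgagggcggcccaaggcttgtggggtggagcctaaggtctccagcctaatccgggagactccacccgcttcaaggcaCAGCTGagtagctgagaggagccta
Neither the 3 windows of Mef2c nor those of Mef2d and Hdac4 held any of these letters, and CAGCTG was in both windows of Hdac9 and in 1 of 4 of Hdac7. A match is a description of the sequence and was not tested for binding.

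The first comparison asked which members differ in Pax3-expressing cells when PAX3-FKHR replaces Pax3. A gene was called at an adjusted p under 0.05 and a log2 difference of at least 0.5, a 1.414-fold difference. Hdac5 was called higher in PAX3-FKHR GFP+ cells than in control GFP+ cells, and no other member was called on its main probe set. This was 1 of 8 genes called higher, where 0.61% of all genes were, and 0 called lower, where 0.203% of all genes were. By limma's unadjusted p under 0.05 the counts were 1 higher and 0 lower (3.88% and 4.49% of all genes), and the local pooled error test gave the same counts. Arrays did not overlap for 1 gene that was higher and 0 that were lower (5.42% and 8.88% of all genes). Over the 24 probe sets, 2 were called higher and 0 lower, against 0.395% and 0.142% of all probe sets. The median log2 difference was 0.15 over the 8 genes and -0.03 over all genes.

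**Figure D1:**
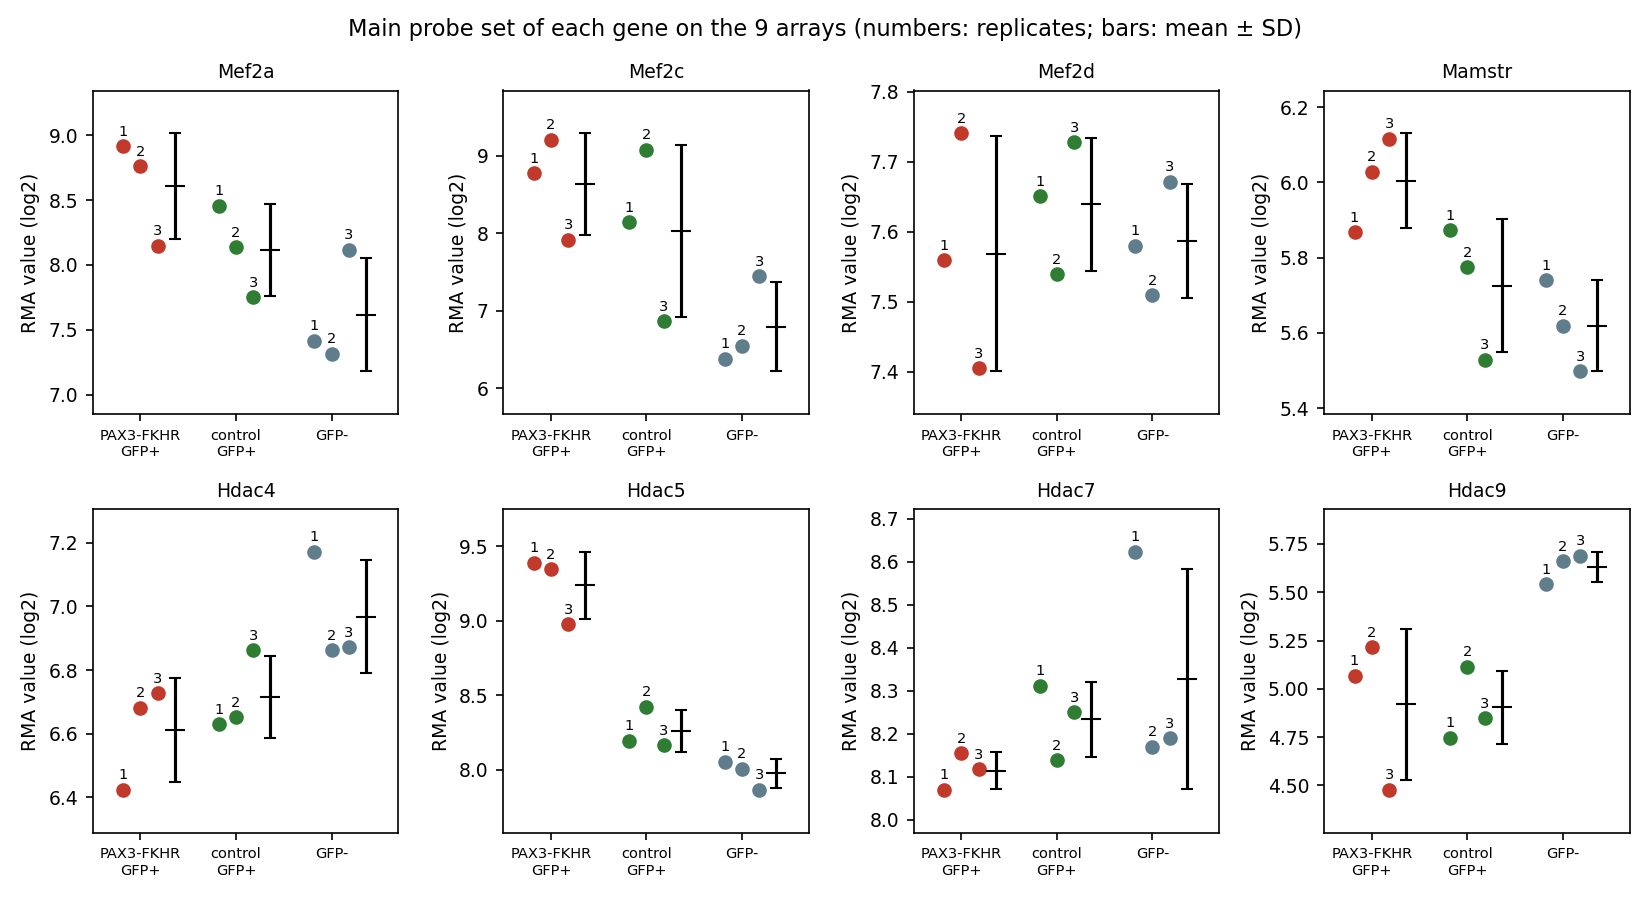
RMA value (log2) of the main probe set of each of the 8 genes, with 3 numbered replicates in PAX3-FKHR GFP+, control GFP+ and GFP- cells from left to right and bars for the mean ± SD. Axes differ between panels and do not start at 0. Hdac5 is higher on all PAX3-FKHR GFP+ arrays, and Hdac9 is highest on all GFP- arrays.

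Hdac5, a class IIa deacetylase that represses Mef2-dependent muscle genes, had log2 values of 9.39, 9.34 and 8.98 in PAX3-FKHR GFP+ cells, 8.20, 8.42 and 8.16 in control GFP+ cells, and 8.05, 8.01 and 7.86 in GFP- cells. Every PAX3-FKHR GFP+ array lay above every other array, and the control GFP+ arrays lay above the GFP- arrays. The difference between PAX3-FKHR GFP+ and control GFP+ cells was 0.98 on the log2 scale (SE 0.15, 95% interval 0.64 to 1.32, 1.97-fold, limma adjusted p = 0.0208). Arrays of same-numbered replicates differed by 1.19, 0.92 and 0.82. The value was never below 0.90 when 1 array was left out, but the call was lost without PAX3-FKHR GFP+ replicate 1 (adjusted p = 0.108), PAX3-FKHR GFP+ replicate 2 (0.125), control GFP+ replicate 1 (0.106) or control GFP+ replicate 3 (0.0544). It was also lost when only the 6 arrays were fitted (adjusted p = 0.0872), and without both GFP- replicate 3 and control GFP+ replicate 3, at 0.93 (adjusted p = 0.057). The local pooled error test called it in both forms tried (adjusted p = 0.00444 and 0.00598).

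Against GFP- cells, Hdac5 was higher in PAX3-FKHR GFP+ cells by 1.26 (SE 0.15, 2.40-fold, limma adjusted p = 8.32e-04), and this call was kept under every alternative run. Between control GFP+ and GFP- cells the difference was 0.29 (95% interval -0.05 to 0.63, adjusted p = 0.31), which did not pass the test. The genes whose main probe sets correlated most with Hdac5 over the 9 arrays were Dnal1, Fam174b and Angptl1, each with a Pearson r of 0.98, a description over arrays that share 3 groups.

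**Figure D2:**
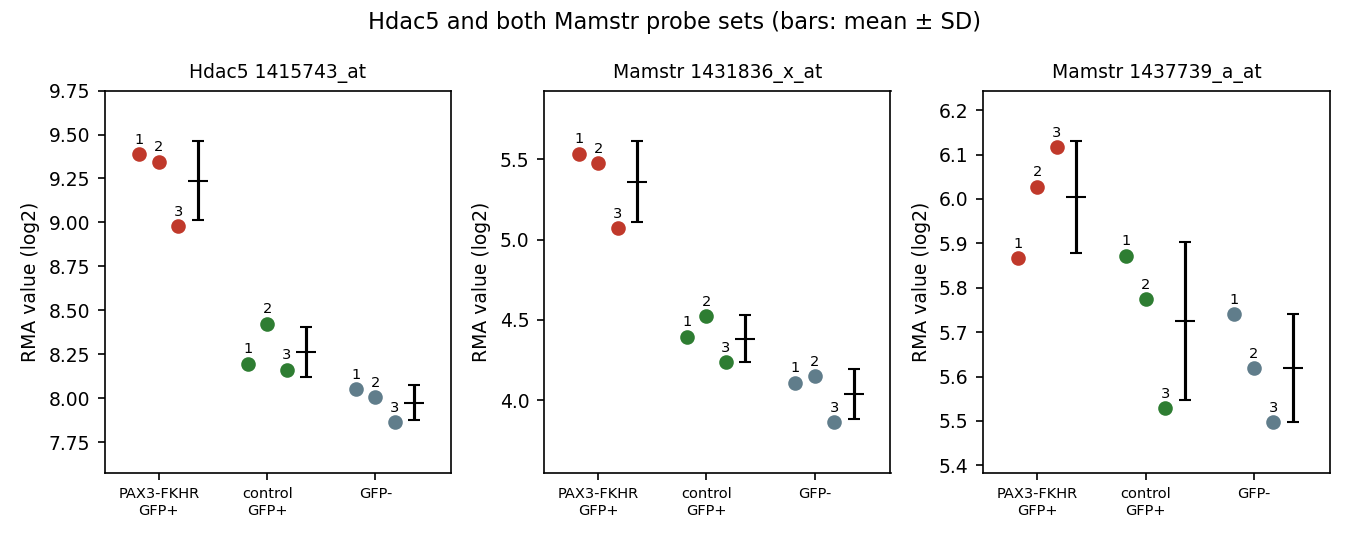
RMA values (log2) of the single Hdac5 probe set and of both Mamstr probe sets on the 9 arrays, with PAX3-FKHR GFP+, control GFP+ and GFP- cells from left to right and bars for the mean ± SD. Axes do not start at 0. Hdac5 and Mamstr 1431836_x_at separate the PAX3-FKHR GFP+ arrays from all others, and Mamstr 1437739_a_at does not separate them from the control GFP+ arrays.

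Mamstr gave different answers on its probe sets. The main one, 1437739_a_at, had log2 values of 5.87, 6.03 and 6.12 in PAX3-FKHR GFP+ cells, 5.87, 5.77 and 5.53 in control GFP+ cells, and 5.74, 5.62 and 5.50 in GFP- cells. The GFP+ groups met at their edges, and the difference of 0.28 between PAX3-FKHR GFP+ and control GFP+ cells (95% interval -0.03 to 0.59) did not pass the test (limma adjusted p = 0.745). The other, 1431836_x_at, had 5.54, 5.48 and 5.07 in PAX3-FKHR GFP+ cells, 4.40, 4.52 and 4.24 in control GFP+ cells, and 4.11, 4.15 and 3.86 in GFP- cells. The 3 groups did not overlap on it. It was higher in PAX3-FKHR GFP+ cells than in control GFP+ cells by 0.98 (SE 0.15, limma adjusted p = 0.0173) and higher than in GFP- cells by 1.32 (adjusted p = 5.05e-04).

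A probe set of this _x_at kind may bind transcripts of other genes, so the Mamstr difference rests on a probe set whose target is less certain. Its call against control GFP+ cells was lost without PAX3-FKHR GFP+ replicate 1 (adjusted p = 0.0794), PAX3-FKHR GFP+ replicate 2 (0.0931), control GFP+ replicate 1 (0.0742) or control GFP+ replicate 3 (0.0572). The control GFP+ values of 1431836_x_at, 4.24 to 4.52, lay below the median of all values, 5.11. A filter at that median left this probe set out, as did a fit without _x_at and _s_at probe sets, so these are not counted here. Of 12 other alternatives, 8 kept the call. It was lost when only the 6 arrays were fitted (adjusted p = 0.0799), without both GFP- replicate 3 and control GFP+ replicate 3, at 0.90 (adjusted p = 0.057), and with a log2 difference of at least 1. The local pooled error test called it in 1 of the 2 forms tried (adjusted p = 0.00405) and not in the other, which raises the variance of dim values (0.136). Taken as the mean of both probe sets, Mamstr was called higher in PAX3-FKHR GFP+ cells than in control GFP+ cells, by 0.63 (limma adjusted p = 0.0195), and than in GFP- cells, by 0.85 (adjusted p = 6.56e-04). This mean includes 1431836_x_at, so it is no separate evidence, and its p-values were adjusted over 18193 genes.

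Mef2c, an early Mef2 gene of muscle that is also expressed in heart and endothelium, had log2 values of 8.77, 9.21 and 7.92 in PAX3-FKHR GFP+ cells, 8.14, 9.08 and 6.87 in control GFP+ cells, and 6.38, 6.55 and 7.45 in GFP- cells. PAX3-FKHR GFP+ arrays were all above the GFP- arrays, whereas control GFP+ replicate 3 lay below GFP- replicate 3. The log2 difference between PAX3-FKHR GFP+ and GFP- cells was 1.84 (95% interval 0.69 to 3.00) and did not pass the test (limma adjusted p = 0.0625). That between control GFP+ and GFP- cells was 1.24 (95% interval 0.08 to 2.39, adjusted p = 0.202), and without control GFP+ replicate 3 it was 1.82 and was called (adjusted p = 0.0416). Between PAX3-FKHR GFP+ and control GFP+ cells it was 0.60 (95% interval -0.55 to 1.76, adjusted p = 0.833). Replicate 3 was the lowest array in both GFP+ groups. Same-numbered arrays differed by 0.63, 0.13 and 1.05, and the difference was 0.02 when control GFP+ replicate 3 was left out and PAX3-FKHR GFP+ replicate 3 was kept. Without both control GFP+ replicate 3 and GFP- replicate 3, a setting chosen after seeing the data, Mef2c was called higher than in GFP- cells both in PAX3-FKHR GFP+ cells, by 2.17 (adjusted p = 0.0118), and in control GFP+ cells, by 2.15 (adjusted p = 0.028).

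All 5 Mef2c probe sets had positive differences in each comparison, and between PAX3-FKHR GFP+ and control GFP+ cells in 3 of 3 same-numbered pairs. On 1421027_a_at, Mef2c had values of 8.03, 9.09 and 7.15 in PAX3-FKHR GFP+ cells, 7.89, 7.60 and 6.05 in control GFP+ cells, and 5.88, 5.06 and 6.16 in GFP- cells. There it was called higher in PAX3-FKHR GFP+ cells than in GFP- cells, by 2.39 (limma adjusted p = 0.0273), a call that among the fits leaving out 1 array was kept without PAX3-FKHR GFP+ replicate 3 or GFP- replicate 3 and lost in the other 4. The 14 other alternatives kept it. On this probe set the difference was 1.48 between control GFP+ and GFP- cells (limma adjusted p = 0.152) and 0.91 between PAX3-FKHR GFP+ and control GFP+ cells (adjusted p = 0.779), and neither passed the test. The remaining 3 Mef2c probe sets had log2 differences of 1.12 to 1.25 between PAX3-FKHR GFP+ and GFP- cells, 0.58 to 0.68 between control GFP+ and GFP- cells, and 0.46 to 0.61 between PAX3-FKHR GFP+ and control GFP+ cells, none of which passed the test.

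Mef2a, a widely expressed Mef2 factor, had log2 values of 8.92, 8.76 and 8.15 in PAX3-FKHR GFP+ cells, 8.46, 8.14 and 7.75 in control GFP+ cells, and 7.42, 7.32 and 8.12 in GFP- cells. PAX3-FKHR GFP+ arrays lay above all GFP- arrays, by a small margin over GFP- replicate 3. The difference between PAX3-FKHR GFP+ and GFP- cells was 0.99 (SE 0.28, 95% interval 0.38 to 1.60, limma adjusted p = 0.0579), and it was called without GFP- replicate 3, at 1.24 (adjusted p = 0.0263), or without PAX3-FKHR GFP+ replicate 3, at 1.22 (adjusted p = 0.0418). Without both GFP- replicate 3 and control GFP+ replicate 3 it was called as well (adjusted p = 0.0131). Neither the 0.49 between PAX3-FKHR GFP+ and control GFP+ cells (adjusted p = 0.769) nor the 0.50 between control GFP+ and GFP- cells (adjusted p = 0.325) passed the test. Same-numbered PAX3-FKHR GFP+ and control GFP+ arrays differed by 0.46, 0.63 and 0.40.

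Of the other 5 Mef2a probe sets, a pair ran much as the main one. On 1421252_a_at Mef2a had values of 6.31, 6.30 and 5.35 in PAX3-FKHR GFP+ cells, 5.59, 5.24 and 4.98 in control GFP+ cells, and 4.62, 4.70 and 5.48 in GFP- cells. Its log2 differences there were 1.05 between PAX3-FKHR GFP+ and GFP- cells (limma adjusted p = 0.0644), 0.34 between control GFP+ and GFP- cells, and 0.72 between PAX3-FKHR GFP+ and control GFP+ cells. On 1427186_a_at these differences were 1.07, 0.38 and 0.69, and none on either probe set passed the test. The probe sets 1427185_at and 1425426_a_at had differences of 0.30 and 0.16 between PAX3-FKHR GFP+ and GFP- cells, 0.30 and 0.36 between control GFP+ and GFP- cells, and 0.0038 and -0.19 between PAX3-FKHR GFP+ and control GFP+ cells, which did not pass either.

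The last Mef2a probe set ran against the main one in the comparisons with GFP- cells. On 1442623_at Mef2a had values of 6.73, 6.47 and 6.41 in PAX3-FKHR GFP+ cells, 6.40, 5.95 and 6.0045 in control GFP+ cells, and 6.64, 6.74 and 7.10 in GFP- cells. In control GFP+ against GFP- cells it was called lower there, by -0.71 on the log2 scale (limma adjusted p = 0.0434), the opposite direction to the main probe set. PAX3-FKHR GFP+ arrays lay above control GFP+ arrays on it, as a log2 difference of 0.42 that did not pass the test (adjusted p = 0.668), and against GFP- cells the difference was -0.29 (adjusted p = 0.42). Of the 6 fits that left out 1 array, the one without control GFP+ replicate 1 kept the call (adjusted p = 0.0359) and the others did not (0.0634 to 0.131).

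Means of muscle, endothelial, cardiac, and neural crest and glia markers were set beside Mef2a and Mef2c on each array. The cardiac mean stood out only on GFP- replicate 3. The mean log2 value of 18 muscle differentiation markers was 7.71, 7.71 and 7.38 in PAX3-FKHR GFP+ cells, 7.23, 7.19 and 6.44 in control GFP+ cells, and 5.04, 4.98 and 5.89 in GFP- cells. Of these markers 15 were called higher in PAX3-FKHR GFP+ cells and 9 in control GFP+ cells, each against GFP- cells, and 1 in PAX3-FKHR GFP+ against control GFP+ cells. The shares of all genes called higher were 3.9%, 2.79% and 0.61%. The mean of 16 endothelial markers was 5.76, 6.11 and 5.67 in PAX3-FKHR GFP+ cells, 6.04, 6.81 and 5.78 in control GFP+ cells, and 5.24, 5.78 and 6.13 in GFP- cells. That of 5 neural crest and glia markers was 7.21, 7.75 and 6.88 in PAX3-FKHR GFP+ cells and 7.61, 8.09 and 6.92 in control GFP+ cells. In GFP- cells it was 5.26, 5.36 and 5.51. Against GFP- cells, 4 of these 5 were called higher in PAX3-FKHR GFP+ cells and 4 in control GFP+ cells. Of 9 neuron markers, 5 and 4 were, beside 3.9% and 2.79% of all genes. Between PAX3-FKHR GFP+ and control GFP+ cells the median log2 difference was 0.59 over the muscle list and -0.38 over the endothelial list. Control GFP+ replicate 3, where Mef2c was lowest among GFP+ arrays, had the lowest muscle mean of the GFP+ arrays, and GFP- replicate 3, where Mef2a and Mef2c were highest among GFP- arrays, had the highest muscle, endothelial and cardiac means of the GFP- arrays. Control GFP+ replicate 2, where Mef2c was highest among control GFP+ arrays, had the highest endothelial and neural crest means of all arrays. Its muscle mean was not above that of control GFP+ replicate 1. Within the muscle list, some genes that embryonic heart also expresses were high on GFP- replicate 3, and others were not. Actc1, a sarcomeric actin, was at 9.03, against 4.79 and 5.18 on the other GFP- arrays. Tnnt2 was at 8.11, against 4.31 and 4.24, and Ttn, the titin gene, at 7.47, against 4.33 and 4.22. Myl4 was at 5.90, against 5.93 and 5.76, and Des at 5.79, against 5.92 and 5.99. The skeletal troponin gene Tnnt1 was at 5.56, against 5.37 and 5.36, Mylpf at 5.59, against 5.72 and 5.51, and Chrna1, a subunit of the muscle acetylcholine receptor, at 5.35, against 5.42 and 5.59. The part of these cell types in the Mef2a and Mef2c values was not tested.

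**Figure D3:**
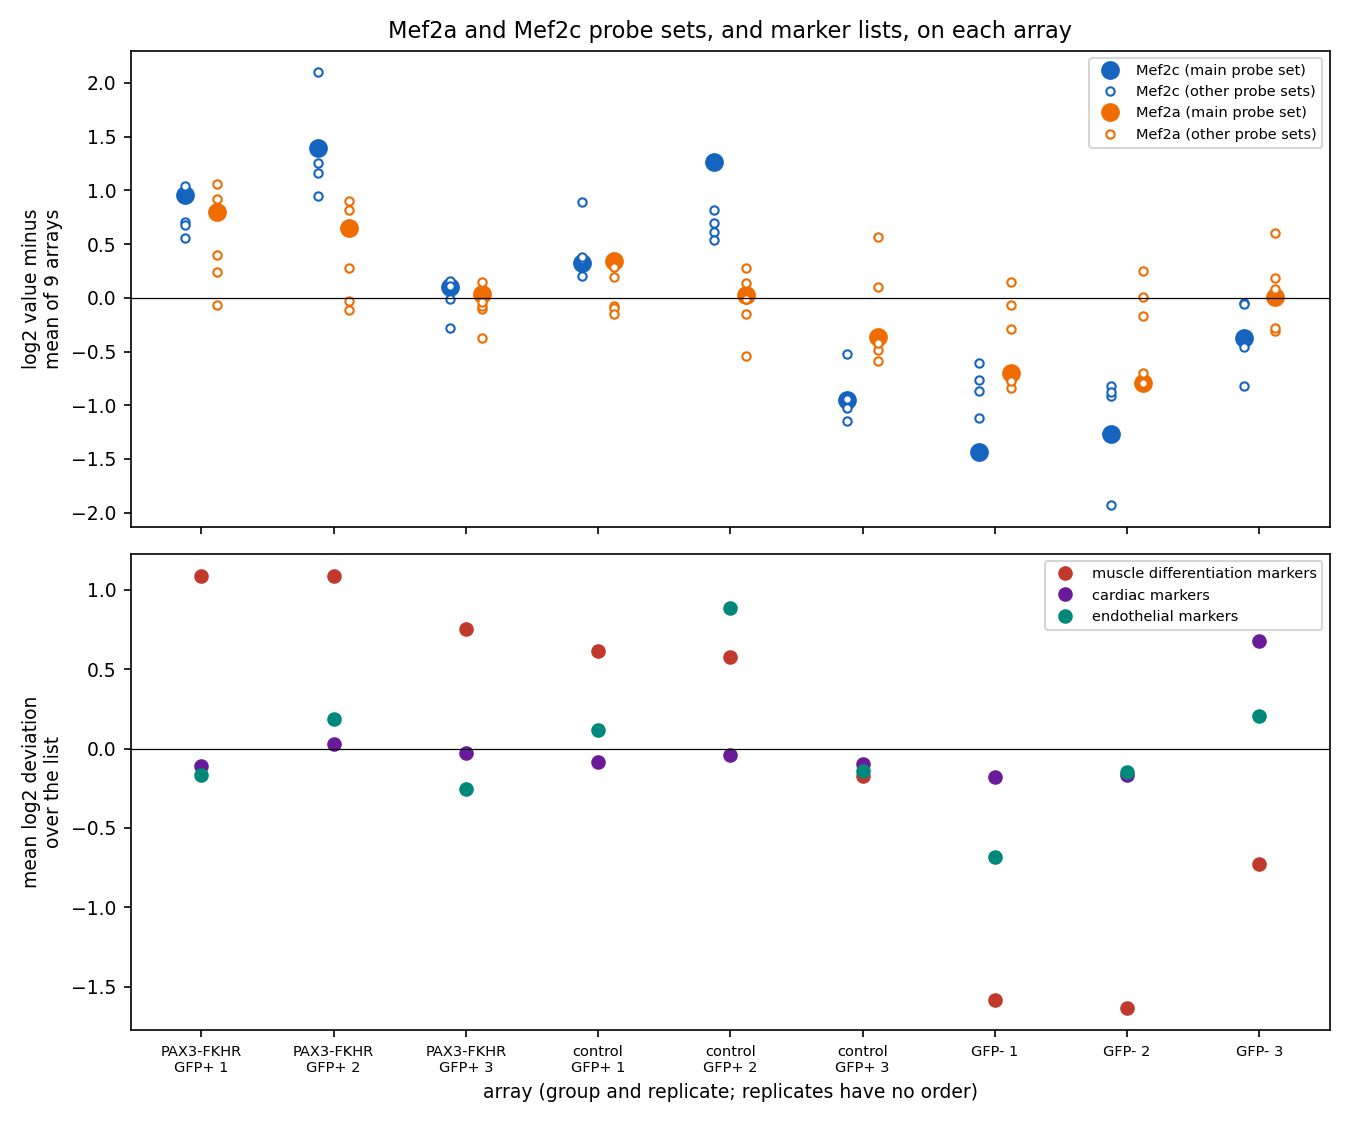
Top, log2 values of all Mef2c (blue) and Mef2a (orange) probe sets on each array, less each probe set's mean over 9 arrays, with filled points for the main probe set. Bottom, the mean of the same quantity over the muscle differentiation, cardiac and endothelial markers. Arrays run from PAX3-FKHR GFP+ through control GFP+ to GFP-, and the cardiac mean stands out only on GFP- replicate 3.

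The genes nearest to Mef2a over the 9 arrays were Uri1, Ipo5 and Unc45b (Pearson r 0.97 each), and those nearest to Mef2c were Myzap, Trmt6 and Il1rap (Pearson r 0.98 each). On its main probe set Mef2d, the third Mef2 factor measured, had log2 values of 7.56, 7.74 and 7.41 in PAX3-FKHR GFP+ cells, 7.65, 7.54 and 7.73 in control GFP+ cells, and 7.58, 7.51 and 7.67 in GFP- cells. The groups overlapped throughout on it. Its difference between PAX3-FKHR GFP+ and control GFP+ cells was -0.07 (95% interval -0.38 to 0.24). On its other probe sets, 1421388_at and 1437300_at, the differences were 0.16 and 0.29 between PAX3-FKHR GFP+ and GFP- cells, 0.17 and 0.42 between control GFP+ and GFP- cells, and -0.0038 and -0.13 between PAX3-FKHR GFP+ and control GFP+ cells. The 3 groups did not overlap on 1437300_at, where control GFP+ arrays were highest and GFP- arrays lowest. Control GFP+ against GFP- cells had a limma adjusted p of 0.0833 there. On 1421388_at the PAX3-FKHR GFP+ arrays lay above the GFP- arrays. None of the 3 probe sets was called in any comparison.

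**Figure D4:**
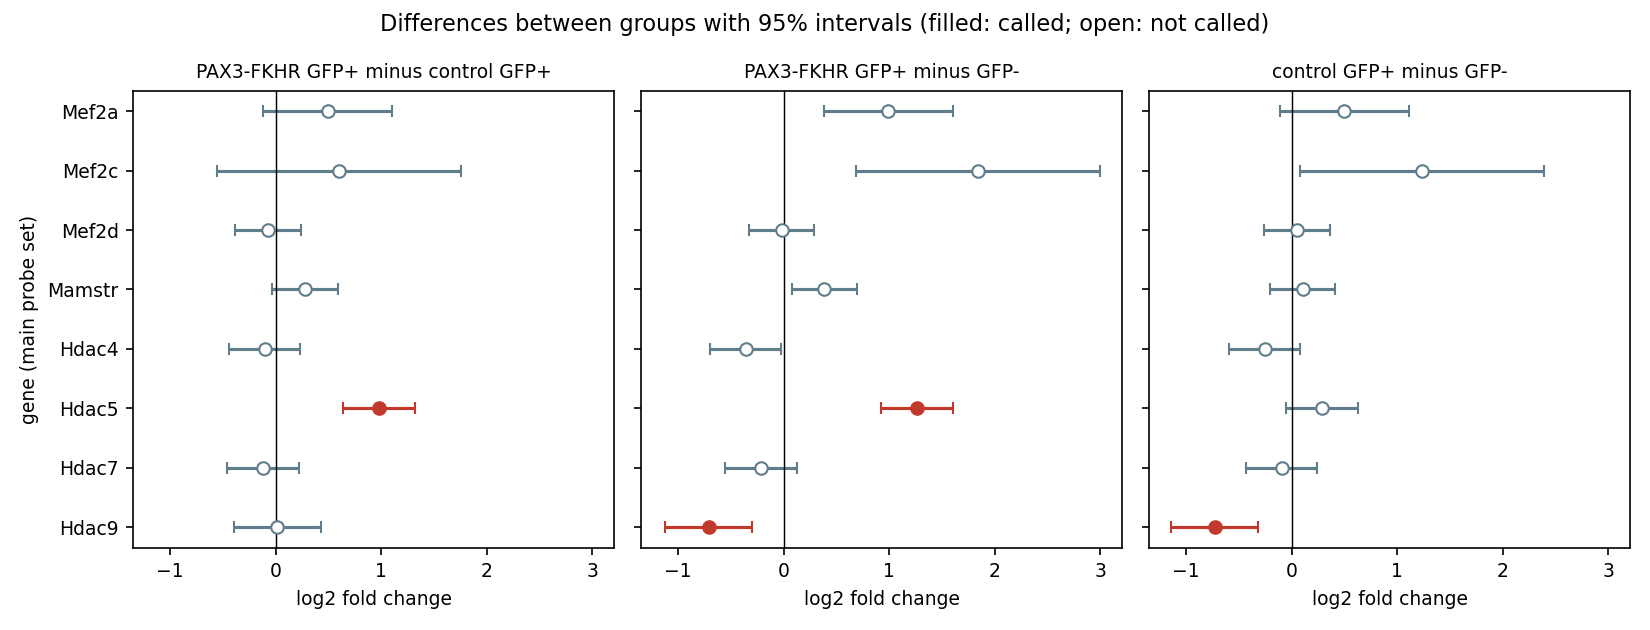
Log2 difference of each gene's main probe set with its 95% interval, for PAX3-FKHR GFP+ minus control GFP+, PAX3-FKHR GFP+ minus GFP-, and control GFP+ minus GFP- cells. Filled red points are called. Hdac5 is called in both comparisons of PAX3-FKHR GFP+ cells, and Hdac9 in both comparisons with GFP- cells.

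The other comparisons asked how Pax3-expressing cells with and without the fusion differ from the rest of the bud. In PAX3-FKHR GFP+ against GFP- cells, 1 of 8 genes was called higher (Hdac5), where 3.9% of all genes were, and 1 lower (Hdac9), where 2.79% were. In control GFP+ against GFP- cells, 0 were called higher, where 2.79% were, and 1 lower (Hdac9), where 1.93% were. For the 0 called higher, limma's unadjusted p under 0.05 gave 1 and the local pooled error test 1, both Mef2c. At that unadjusted p, 1 member was higher and 1 lower in control GFP+ against GFP- cells (13.3% and 6.27% of all genes), and 4 were higher and 2 lower in PAX3-FKHR GFP+ against GFP- cells (11.2% and 7.98%). Of the 24 probe sets, 3 were called higher and 1 lower in PAX3-FKHR GFP+ against GFP- cells (2.8% and 4% of all probe sets), and 0 higher and 2 lower in control GFP+ against GFP- cells (1.84% and 4.01%). Arrays did not overlap for 4 genes that were higher and 3 that were lower in PAX3-FKHR GFP+ than in GFP- cells, against 17.8% and 10.1% of all genes, and for 1 higher and 1 lower in control GFP+ set against GFP- cells, beside 17.2% and 6.96%. These comparisons share GFP- arrays, and the PAX3-FKHR GFP+ arrays also enter the first comparison.

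Hdac9, a class IIa deacetylase that itself is a Mef2 target in muscle, had log2 values of 5.07, 5.22 and 4.48 in PAX3-FKHR GFP+ cells, 4.75, 5.11 and 4.85 in control GFP+ cells, and 5.54, 5.66 and 5.69 in GFP- cells. All GFP- arrays lay above all GFP+ arrays. The means of PAX3-FKHR GFP+ and control GFP+ cells, 4.92 and 4.90, lay below the median of all values, 5.11. It was lower in PAX3-FKHR GFP+ than in GFP- cells, by -0.71 (SE 0.19, limma adjusted p = 0.0467), and lower too in control GFP+ cells against GFP- cells, by -0.73 (SE 0.19, adjusted p = 0.0464). Both calls were marginal: leaving out any 1 array ended the call for control GFP+ cells (adjusted p from 0.0558 to 0.125), and all such fits but the one without PAX3-FKHR GFP+ replicate 2 (0.0431) ended it for PAX3-FKHR GFP+ cells (0.0725 to 0.129). Of 15 other alternatives, 6 kept the call for control GFP+ cells and 5 that for PAX3-FKHR GFP+ cells. With its probe sets averaged, the difference between control GFP+ and GFP- cells was -0.26 (limma adjusted p = 0.196).

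The other Hdac9 probe set, 1421306_a_at, did not follow, with a log2 difference of 0.10 between PAX3-FKHR GFP+ and GFP- cells (limma adjusted p = 0.704) and 0.21 between control GFP+ and GFP- cells (adjusted p = 0.341). Its group means, 4.68 to 4.89, also lay below the median of all values. Of 11 blood and macrophage markers, 2 were called lower in PAX3-FKHR GFP+ cells and 1 in control GFP+ cells, each against GFP- cells, where 2.79% and 1.93% of all genes were. By limma's unadjusted p under 0.05, 3 and 5 were lower (7.98% and 6.27% of all genes). The local pooled error test called 9 and 8 lower, and its share over all genes was not counted. The mean of these markers was 6.79, 7.57 and 6.09 in PAX3-FKHR GFP+ cells, 6.67, 7.58 and 5.78 in control GFP+ cells, and 6.63, 8.67 and 9.15 in GFP- cells, so that GFP- replicate 1 lay within the range of the GFP+ arrays. Their part in the Hdac9 values was not tested. The genes nearest to Hdac9 over the 9 arrays were Lrba, Fermt3 and Dgcr2 (Pearson r 0.98, 0.98 and 0.97).

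Hdac4, which represses Mef2 targets in muscle and cartilage, had log2 values of 6.42, 6.68 and 6.73 in PAX3-FKHR GFP+ cells, 6.63, 6.65 and 6.86 in control GFP+ cells, and 7.17, 6.86 and 6.87 in GFP- cells. Only the PAX3-FKHR GFP+ and GFP- arrays did not overlap, and that difference of -0.36 did not pass the test (limma adjusted p = 0.216). Hdac7, best known for its role in endothelium and thymocytes, had 8.07, 8.16 and 8.12 in PAX3-FKHR GFP+ cells, 8.31, 8.14 and 8.25 in control GFP+ cells, and 8.62, 8.17 and 8.19 in GFP- cells. Its difference between PAX3-FKHR GFP+ and control GFP+ cells was -0.12 (95% interval -0.46 to 0.22), and none of the probe sets of Hdac4 or Hdac7 was called. Over the 3 comparisons the differences lay between -0.20 and 0.14 on the other Hdac4 probe sets and between 0.0061 and 0.03 on the other of Hdac7.

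The partners of these genes were read from lists of the pathway. In PAX3-FKHR GFP+ against control GFP+ cells, none of 7 other histone deacetylases, 8 corepressors and partners, 17 kinases of class IIa deacetylases, 8 genes of 14-3-3 proteins and export, or 16 Mef2 activating kinases, phosphatase and coactivators was called by limma. Of all genes 0.61% were called higher there and 0.203% lower. By limma's unadjusted p under 0.05 these 5 lists held 1 gene that was higher and 7 that were lower (3.88% and 4.49% of all genes), and the local pooled error test called 0. In control GFP+ against GFP- cells, none of the first 4 of these lists had a called gene, where 2.79% of all genes were called higher and 1.93% lower. By limma's unadjusted p under 0.05, 4 were higher and 2 lower (13.3% and 6.27% of all genes), and the local pooled error test called 1 higher. In PAX3-FKHR GFP+ against GFP- cells, Hdac6, a cytoplasmic tubulin deacetylase, was lower by -0.64 (limma adjusted p = 0.0405). Prkd1, a kinase that drives class IIa deacetylases out of the nucleus, was higher by 0.65 (limma adjusted p = 0.0472). Hdac6 was 1 of 7 genes in its list and Prkd1 1 of 17, where 2.79% of all genes were called lower and 3.9% higher. The local pooled error test called no gene of either list, and 1 lower among the corepressors and partners. Vgll2, a muscle cofactor of Tead factors that also binds Mef2, was higher by 3.39 in PAX3-FKHR GFP+ cells (adjusted p = 9.31e-06) and by 2.80 in control GFP+ cells (adjusted p = 7.06e-05), each against GFP- cells. Mapk12, a p38 kinase, was higher by 1.05 in control GFP+ than in GFP- cells (limma adjusted p = 0.044). There limma called 2 of the 16 genes of the Mef2 activating list higher, and the local pooled error test called 1.

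Myocd, a SAP domain cofactor of SRF related to Mamstr, was the 1 called gene of 4 in its list. It averaged 5.53 in PAX3-FKHR GFP+ cells and 4.13 in control GFP+ cells, a log2 difference of 1.40 (limma adjusted p = 0.0149), and was higher than in GFP- cells by 1.86 (adjusted p = 4.74e-04). Of 4 myogenic regulatory factors, 3 were called higher in PAX3-FKHR GFP+ cells and 4 in control GFP+ cells, each against GFP- cells, where 3.9% and 2.79% of all genes were. Myf5 was higher by 6.67 in PAX3-FKHR GFP+ cells (limma adjusted p = 1.96e-06) and by 5.74 in control GFP+ cells (adjusted p = 1.12e-05). None of the 4 was called between PAX3-FKHR GFP+ and control GFP+ cells. There 3 were higher and 1 lower by limma's unadjusted p under 0.05 (3.88% and 4.49% of all genes), and the local pooled error test called 1 higher.

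Of 16 Mef2 target genes of muscle, 6 were called higher in PAX3-FKHR GFP+ cells and 4 in control GFP+ cells, each against GFP- cells, where 3.9% and 2.79% of all genes were, and 0 were called lower. By limma's unadjusted p under 0.05, 7 were higher and 1 lower in PAX3-FKHR GFP+ cells (11.2% and 7.98% of all genes), and 7 higher and 0 lower in control GFP+ cells (13.3% and 6.27%). The local pooled error test called 6 higher and 1 lower in PAX3-FKHR GFP+ cells, and 4 higher and 0 lower in control GFP+ cells. Its share over all genes was not counted. The median log2 difference of the list was 0.27 in PAX3-FKHR GFP+ cells, beside 0.05 over all genes, and 0.32 in control GFP+ cells, beside 0.08 over all genes. Ppargc1a, a coactivator of mitochondrial genes, was higher in PAX3-FKHR GFP+ than in GFP- cells by 3.25 (limma adjusted p = 1.11e-04), Mylpf, a fast muscle myosin light chain, by 2.16 (adjusted p = 1.12e-04), and Des, the muscle intermediate filament, by 2.18 (adjusted p = 3.01e-04). Between PAX3-FKHR GFP+ and control GFP+ cells 1 target was called, Jun, an immediate early factor expressed in many cell types, higher by 1.04 (adjusted p = 0.0183). The Ppargc1a difference there was 1.54 and did not pass the test (adjusted p = 0.0522).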

How the data were processed

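RNA of sorted cells was hybridised to Affymetrix Mouse430_2 arrays. The deposited values are log2 signals made by the authors with RMA, which corrects background, normalizes between arrays and summarises probes, and they were used unchanged. The authors also discarded probe sets called absent, and such calls were not used here. Of 45101 probe sets, 64 array controls were left out, and of the 45037 tested 34945 had 1 gene symbol, 932 several and 9160 none.

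A single model of the 9 arrays was fitted in limma 3.58.1 (R 4.3.3), with an intensity trend, and p-values were adjusted by Benjamini-Hochberg over the 45037 probe sets. Genes were called at an adjusted p under 0.05 and a log2 difference of at least 0.5. The authors' local pooled error test was rebuilt as an alternative, with 100 bins. It was tried in 2 forms, with and without raising the variance of dim values, and the form without was kept for the text on the strength of a test on simulated data, after the calls of both forms on these arrays had been seen. Results of both are given for the members and for all probe sets. Counts of this test over the lists come from the form without raising alone, and its shares over all genes were not counted.

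Named were all members, with array values for the main and each called probe set and at least the differences for the others, up to 3 called genes of each pathway list and comparison with the smallest adjusted p, the 3 genes most correlated with each member, Pax3, and marker genes where an array stood apart. Members and lists were chosen with earlier results of these data known. Some genes of these lists are not reported here. Deviations of same-numbered PAX3-FKHR GFP+ and control GFP+ arrays from their group means correlated with r of 0.164, 0.472 and 0.287. Differently numbered arrays of these groups had r of -0.367 to 0.000384. The numbers, which come from the sample titles, were therefore taken as pairing these groups, though the labels do not state it. Those of GFP- arrays did not pair. Values of r up to 0.322 also arose between differently numbered PAX3-FKHR GFP+ and GFP- arrays, so the pairing is not established. The main model had no replicate block, so its p-values do not use this pairing, and fits with a block are given as alternatives. The number of arrays limits the precision.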

Additional observations from a re-analysis of the deposited data

How the results depend on the processing

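The Hdac5 difference between PAX3-FKHR GFP+ and control GFP+ cells kept its sign under every alternative, between 0.90 and 1.15. Of the 8 genes, the number called in that comparison, 1, was 0 when only the 6 arrays compared were fitted, 0 with a log2 difference of at least 1, 2 with each gene's probe sets averaged, and 0 without both GFP- replicate 3 and control GFP+ replicate 3. Leaving out 1 array gave 0 to 1. In control GFP+ against GFP- cells the count of 1 was 0 with arrays centred on their medians, 0 when quantile normalized again, 0 without an intensity trend, 3 with array weights, 0 with a replicate block on the 6 arrays compared, 0 with a log2 difference of at least 1, and 0 with each gene's probe sets averaged. Leaving out 1 array gave 0 to 1. In PAX3-FKHR GFP+ against GFP- cells the count of 2 was 1 with arrays centred, 1 when quantile normalized again, 1 without a trend, 4 with array weights, 1 with a log2 difference of at least 1, and 4 with probe sets filtered at the median of all values. Leaving out 1 array gave 1 to 2. With array weights the added calls were Mef2a and Mef2c in both comparisons, and with the filter they were Mef2a (adjusted p = 0.0414) and Mef2c (0.0463). The cause of these changes was not tested, except that a stricter threshold calls fewer genes by construction.

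With a replicate block on all 9 arrays the counts were 1, 1 and 2, and Hdac5 kept its call between PAX3-FKHR GFP+ and control GFP+ cells (limma adjusted p = 0.0328 on all 9 arrays and 0.0246 on the 6 compared). The block on the 6 arrays compared ended the Hdac9 calls in control GFP+ (adjusted p = 0.0554) and PAX3-FKHR GFP+ cells (0.078) against GFP- cells and made that of Mef2c in PAX3-FKHR GFP+ against GFP- cells (0.0483). In these comparisons the array numbers did not pair. Between PAX3-FKHR GFP+ and control GFP+ cells that block left Mef2a (limma adjusted p = 0.248) and Mef2c (0.298) uncalled.

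The local pooled error test was run in 2 forms. Without raising the variance of dim values it called 372, 2469 and 3657 probe sets in PAX3-FKHR GFP+ against control GFP+, control GFP+ against GFP- and PAX3-FKHR GFP+ against GFP- cells. With raising, the form tried first and listed as an alternative only after the data were seen, it called 252, 1452 and 2579. On the main probe sets both forms called the same members: Hdac5 in the first comparison, Mef2c in the second, and Hdac5, Mef2a and Mef2c in the third. On other probe sets the form without raising made calls that the other did not: Mamstr 1431836_x_at (adjusted p = 0.00405 without raising and 0.136 with it) and Mef2a 1421252_a_at (0.0306 and 0.155, at a difference of medians of 1.05) between PAX3-FKHR GFP+ and control GFP+ cells, and Mef2c 1451506_at (0.0191 and 0.0732) and 1451507_at (0.0383 and 0.161) between control GFP+ and GFP- cells.

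Small differences that never passed the test changed sign. Between PAX3-FKHR GFP+ and control GFP+ cells, Hdac9 was -0.0463 with its probe sets averaged, -0.13 to 0.24 when 1 array was left out and -0.0102 without both arrays, Hdac4 was 0.0298 in both forms of the local pooled error test, and Mef2d was -0.1575 to 0.0104 when 1 array was left out. Between control GFP+ and GFP- cells, Hdac7 was 0.061 in both forms and -0.1728 to 0.0538 when 1 array was left out. Between PAX3-FKHR GFP+ and GFP- cells, Mef2d was 0.0345 when quantile normalized again, 0.0222 with array weights, 0.1452 with its probe sets averaged, -0.1047 to 0.0631 when 1 array was left out, and 0.0239 without both arrays. The setting without both arrays was chosen after seeing the data.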

Other observations

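Genes nearest to the remaining members over the 9 arrays, as a description, were Herpud2, Sav1 and Gpd2 for Mef2d (Pearson r 0.93, 0.87 and 0.87), Sapcd1, Islr and Stard6 for Mamstr (0.96 each), Pkd1, Fgfr1 and Slc9a5 for Hdac4 (0.97, 0.96 and 0.94), and Grik5, Rcor2 and Arhgap33 for Hdac7 (0.95, 0.94 and 0.94). The arrays share 3 groups, and the genes were picked as the highest of all genes, so no test was made.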
